A study of Rattus norvegicus with 8 samples.

Results

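The transcripts described here encode heterogeneous nuclear ribonucleoproteins (hnRNPs), SR proteins and RNA-binding motif (RBM) proteins, measured in a fast-twitch leg muscle of rats with and without prolonged thyroid hormone excess. Members were the genes whose probe sets carry a single symbol in the platform annotation that starts with Hnrnp, Srsf, Syncrip or Rbm. This gave 68 of the 14218 genes with such a symbol, namely 17 Hnrnp, 11 Srsf, 38 Rbm and 2 Syncrip genes, covered by 125 probe sets. Each gene was represented by its brightest probe set, and 62 members passed the filter on low values described with the processing. Of these, 17 were Hnrnp, 9 Srsf, 34 Rbm and 2 Syncrip genes.

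Total RNA of the tibialis anterior of 8 adult Sprague-Dawley rats, with 3 males and 1 female in each group, was measured on Affymetrix expression arrays, with a separate array for each of the 8 animals. The 4 hyperthyroid rats were given intraperitoneal triiodothyronine, the active thyroid hormone (T3), at 25 µg per 100 g body weight, once every 2 days over a course of 6 weeks. Their muscle was taken 24 hours after the final injection. The 4 control rats were untreated, so a vehicle injection is not part of the comparison. Values are intensities on a linear scale, in the submitters' arbitrary units, and differences are log2 fold changes of hyperthyroid over control with the standard error (SE) of limma, a linear model fitted to all genes. A gene was called at a limma p-value under 0.05 after Benjamini-Hochberg adjustment over the 10194 genes tested.

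Pre-messenger RNA is coated by RNA-binding proteins while it is transcribed. SR proteins bind exonic enhancers through RNA recognition motifs and recruit the splicing machinery through domains rich in arginine and serine, whereas many hnRNPs bind silencer elements and oppose exon inclusion. Several hnRNPs also act on export, stability and translation of mature transcripts. The RBM genes share a name rather than a function. They include splicing regulators of striated muscle, parts of the spliceosome and of the exon junction complex, and proteins that assemble ribosomes. Muscle relies on this machinery because titin, troponins and tropomyosins exist as tissue-specific splice forms. An intensity of a probe set does not show which splice form was present.

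All 10 fibre markers examined (among them Ckm, Acta1, Myh4 and Tnnt3) passed the filter, and their summed intensity lay between 290362 and 426815 on the 8 arrays. It was lower on every hyperthyroid array (290362 to 356252) than on any control array (365105 to 426815). Summed smooth muscle markers separated the groups in the same way, at 711 to 833 on hyperthyroid and 840 to 1454 on control arrays. The 100 brightest probe sets took 21.8% to 24.4% of the total intensity on hyperthyroid and 25.9% to 27.9% on control arrays. The part of these group differences in the values below was not tested. Along the first principal component control replicate 11 was the most distant array, and along the second it was control replicate 9. Summed Schwann cell markers reached 3057 and 2098 on control replicates 7 and 11 and ran from 321 to 1108 on the other 6 arrays. Slow-fibre markers, with sums of 33911 and 22065 on those same control arrays against 429 to 6377 elsewhere, followed the same arrays. Pearson correlations between arrays over the kept probe sets ran from 0.850 to 0.925. In bulk muscle, fewer cells of a type and less RNA per cell cannot be told apart.

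Among the members, 1 of 62 was called, Syncrip-ps2, which was higher in the hyperthyroid group, against 7 of 10194 genes (0.0687%). No member was called lower, and the same was true of all genes (0 of 10194, 0%). Before adjustment, 6 members (9.68%) had a limma p under 0.05, 5 of them higher (Syncrip-ps2, Rbm25, Rbm24, Hnrnpd and Hnrnpdl) and 1 lower (Rbm10). Over all genes the share was 10.6%, with 5.39% higher and 5.21% lower, so the members' share was close to the background. Hyperthyroid and control arrays were fully separated for 6 members, 5 higher and 1 lower, compared with 6.55% of all genes (3.35% higher and 3.21% lower). The median size of the log2 fold change, regardless of sign, was 0.19 over the members and 0.24 over all genes. The signed median log2 fold change was -0.015 over the members and -0.00067 over all genes, with 29 members above 0 and 33 below. Values for 3 Rbm genes under the filter were near the floor: Rbm11 had means of 9.12 and 8.10, Rbm43 of 14.0 and 25.2 and Rbm44 of 6.44 and 7.09 in the hyperthyroid and control groups.

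**Figure D1:**
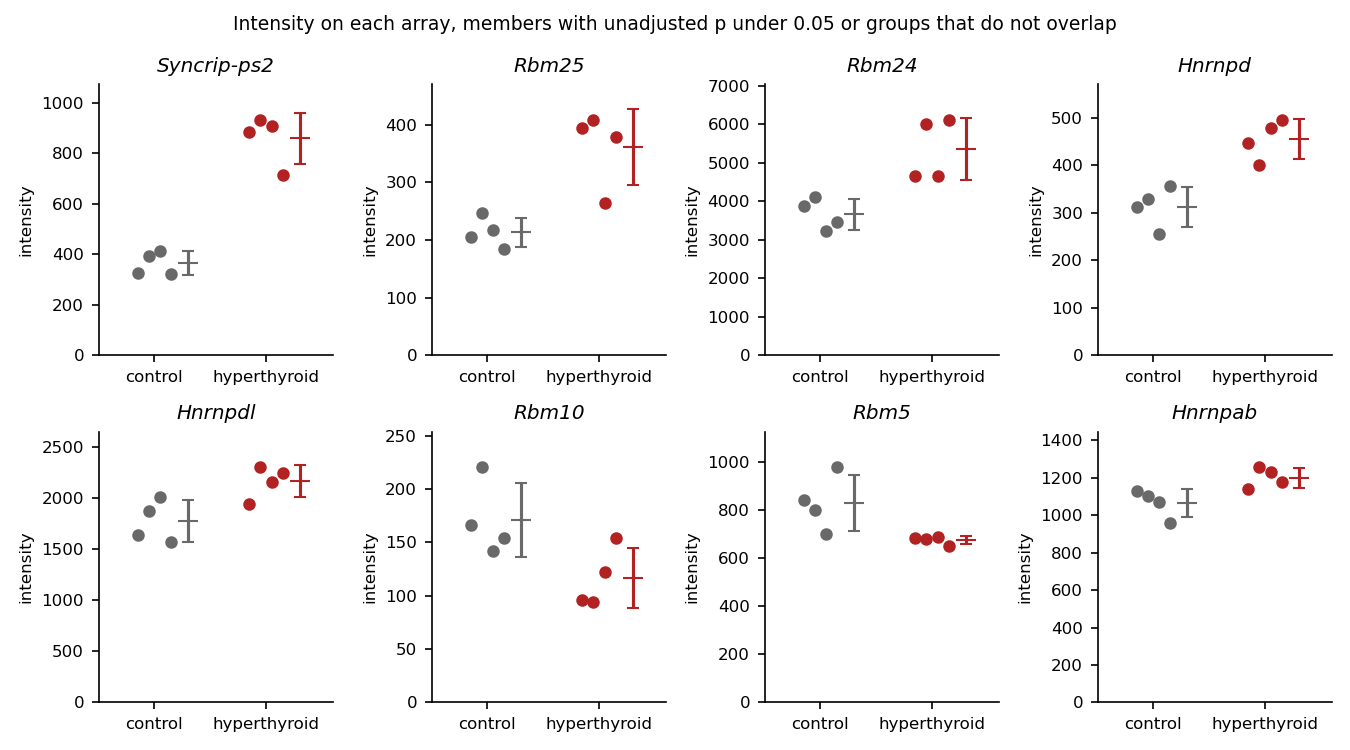
Intensity on the vertical axis (linear, from 0) for the 8 members with an unadjusted p under 0.05 or with groups that do not overlap. Each point is 1 array, bars are mean ± SD of 4 arrays, grey is control and red hyperthyroid. For Syncrip-ps2 the hyperthyroid arrays lie at 712 to 932 and the control arrays at 322 to 414.

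Syncrip encodes hnRNP Q, a cytoplasmic and nuclear protein that binds A-rich and AU-rich stretches, and Syncrip-ps2 is a related locus that lies directly next to it in the RefSeq annotation of assembly GRCr8. Despite its suffix, that annotation lists Syncrip-ps2 as protein-coding. Its probe set had intensities of 883, 712, 932 and 906 on hyperthyroid replicates 1, 2, 3 and 5. On control replicates 7, 8, 9 and 11 it had 324, 394, 414 and 322. Every hyperthyroid array was therefore above every control array, and the lowest hyperthyroid value, 712, was well clear of the highest control value, 414. The mean rose from 363 ± 47.1 to 858 ± 99.6 (SD, n = 4 each), a 2.35-fold difference (log2 fold change 1.23 ± 0.15, limma adjusted p = 0.0109). The call was lost without hyperthyroid replicate 3 (1.19, limma adjusted p = 0.112), without control replicate 7 (1.18, limma adjusted p = 0.0595) and without a trend of variance on level (limma adjusted p = 0.303). It was also lost without both control replicates 9 and 11 and without both control replicates 7 and 11 (limma adjusted p = 0.106 and 0.0867).

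Windows upstream of the annotated start are shown for Syncrip-ps2 and Syncrip, because these neighbours carry the contrast within the family, and for the 4 other members with the smallest p among the higher ones. They hold the 250 bases before the start, 5′ to 3′, from RefSeq (assembly GRCr8). Capitals mark AGGTCA or its reverse complement, the half-site that thyroid hormone receptors bind.
Syncrip-ps2: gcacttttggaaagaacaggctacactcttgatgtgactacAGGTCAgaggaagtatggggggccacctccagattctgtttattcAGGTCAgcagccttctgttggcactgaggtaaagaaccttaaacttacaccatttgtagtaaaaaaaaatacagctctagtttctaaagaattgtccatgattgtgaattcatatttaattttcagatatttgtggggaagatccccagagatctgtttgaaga
Syncrip: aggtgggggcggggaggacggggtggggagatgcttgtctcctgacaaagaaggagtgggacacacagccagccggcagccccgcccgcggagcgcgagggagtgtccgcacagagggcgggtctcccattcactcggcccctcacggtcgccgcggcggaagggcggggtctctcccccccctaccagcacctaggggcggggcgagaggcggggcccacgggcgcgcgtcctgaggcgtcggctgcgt
Hnrnpd: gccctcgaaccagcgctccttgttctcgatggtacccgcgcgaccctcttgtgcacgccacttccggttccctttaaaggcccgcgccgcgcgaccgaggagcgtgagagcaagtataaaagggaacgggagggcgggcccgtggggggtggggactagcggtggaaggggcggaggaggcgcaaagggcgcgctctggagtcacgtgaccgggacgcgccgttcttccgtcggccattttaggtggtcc
Hnrnpdl: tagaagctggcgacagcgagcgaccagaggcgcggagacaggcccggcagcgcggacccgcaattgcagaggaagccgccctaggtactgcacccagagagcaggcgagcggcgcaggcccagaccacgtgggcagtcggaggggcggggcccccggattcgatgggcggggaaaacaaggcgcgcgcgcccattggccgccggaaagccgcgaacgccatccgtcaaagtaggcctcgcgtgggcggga
Rbm24: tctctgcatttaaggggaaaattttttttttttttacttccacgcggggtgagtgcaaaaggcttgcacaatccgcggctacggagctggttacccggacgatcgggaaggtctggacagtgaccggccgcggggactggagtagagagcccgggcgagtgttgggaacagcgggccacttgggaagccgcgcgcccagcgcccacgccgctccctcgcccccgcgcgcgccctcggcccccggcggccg
Rbm25: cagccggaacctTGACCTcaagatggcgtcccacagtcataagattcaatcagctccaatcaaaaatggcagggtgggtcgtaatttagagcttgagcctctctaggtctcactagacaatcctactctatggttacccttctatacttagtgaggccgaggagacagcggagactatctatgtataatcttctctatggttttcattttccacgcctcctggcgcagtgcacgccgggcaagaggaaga

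The windows lie at chr8:98373658-98373907 on the minus strand for Syncrip-ps2 and at chr8:98315387-98315636 on the minus strand for Syncrip. Those of the neighbouring genes Hnrnpd and Hnrnpdl lie at chr14:9919507-9919756 on the plus strand and at chr14:9861466-9861715 on the plus strand. For Rbm24 the window is chr17:18493629-18493878 on the minus strand, and for Rbm25 it is chr6:109002641-109002890 on the plus strand. AGGTCA was found on either strand in 2 places upstream of Syncrip-ps2 and in 1 place upstream of Rbm25, and in none of the other 4 windows. Both places before Syncrip-ps2 lie in a stretch that reads as codons without a stop from the start of the window. The window may therefore be part of a gene body instead of a promoter, which was not tested. Receptor binding was not tested at any match. Of the 59 members with a window, 7 held at least 1 match (11.9%), against 13.7% of all 27457 windows of the same length, so the half-site was about as frequent before members as elsewhere. No window of either kind held AGGTCA as a direct repeat with a gap of 4 bases. TATAAA, searched on both strands, was present in 7 member windows (11.9%) and in 13.1% of all windows.

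As a description, the base composition of the members differed from that of all annotated windows. The members' windows had a median of 61.2% G and C bases and 21 CpG dinucleotides, against 52% and 6 over all windows. All windows were not restricted to genes on the array. Members were not compared with the windows of the genes tested, so the difference is not shown to be particular to these families. The window of Syncrip-ps2 had 39.6% G and C and no CpG, as had that of Hnrnph3, and that of Rbm47 had 36% and 3. The window of Syncrip had 74% and 27. That of Syncrip-ps2 was not shown to be a promoter, so its contrast with Syncrip need not be one between promoters.

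The 4 kept probe sets of Syncrip did not move alike. The brightest had 812, 1179, 1004 and 1071 on hyperthyroid replicates 1, 2, 3 and 5, while control replicates 7, 8, 9 and 11 had 1134, 1231, 1337 and 920, so the groups overlapped (-0.18 ± 0.16, limma adjusted p = 0.72). The next 2 by intensity gave 0.14 ± 0.15 and 0.31 ± 0.18. The faintest gave 0.77 ± 0.29, with 151, 146, 199 and 189 on hyperthyroid and 89.8, 121, 148 and 57.5 on control arrays in the same order of replicates. Its groups overlapped only between 146 and 148, and it was not called (limma adjusted p = 0.425 over probe sets). The log2 ratio of Syncrip-ps2 to each Syncrip probe set, taken within arrays, was compared between groups in 4 exact two-sided permutation tests. It was higher in the hyperthyroid group by 1.42, 1.09 and 0.93 against the first 3 (exact permutation p = 0.0286 each, adjusted 0.0381, the smallest p that 4 against 4 allow being 0.0286). Against the faintest it was higher by 0.47 (exact permutation p = 0.114). Syncrip-ps2, the numerator of all 4 ratios, was the member already called on these same arrays. The 4 tests are therefore independent neither of that call nor of each other, and add no separate support. The sequences that these probe sets detect were not examined, and cross-hybridisation between the neighbouring loci was not tested.

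Hnrnp genes leaned upwards without any call. Of the 17 tested, 12 lay above 0 and 5 below in log2 fold change, with a median of 0.15, where 5093 of the 10194 genes lay above 0. That median was 0.086 without control replicate 9 and 0.056 without both control replicates 9 and 11. An unadjusted p under 0.05 was reached by 2 of the 17 (11.8%, against 10.6% of all genes), and no Hnrnp gene was called. The highest were Hnrnpd (0.55), Hnrnpa1 (0.34) and Hnrnpll (0.33), and the lowest was Hnrnph3 (-0.46). Among Hnrnp genes with several kept probe sets, Hnrnpa2b1, Hnrnpa3, Hnrnph3 and Hnrnpu had both signs, and Hnrnpa1 and Hnrnpdl a single sign.

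Hnrnpd encodes AUF1, which binds AU-rich elements of short-lived messenger RNAs and directs their decay. Its intensities were 447, 496, 400 and 479 on hyperthyroid replicates 1, 2, 3 and 5, against 311, 328, 255 and 355 on control replicates 7, 8, 9 and 11. The groups did not overlap. Means were 455 ± 41.9 and 312 ± 42.5 (SD, n = 4 each), and the difference of 0.55 ± 0.16 in log2 was not called (limma adjusted p = 0.266). Hnrnpdl, its paralogue and direct neighbour in the annotation, in which mutations cause a limb-girdle muscular dystrophy in humans, had 1948, 2251, 2305 and 2162 against 1645, 1874, 2016 and 1570. Only hyperthyroid replicate 1 fell below the highest control array (0.29 ± 0.12, limma adjusted p = 0.441), and its 2 other kept probe sets gave 0.20 and 0.07. Hnrnpab, another relative with a similar pair of RNA recognition motifs, had 1139, 1175, 1257 and 1231 against 1130, 1103, 1070 and 959. Its groups did not overlap, but by a margin of 1139 to 1130, and the difference was small (0.17 ± 0.12, limma adjusted p = 0.638).

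None of the core packaging hnRNPs was called, and their groups overlapped. Hnrnpa2b1, which packages pre-mRNA and also sorts RNA for transport, had 2182 to 3060 on hyperthyroid and 2078 to 2642 on control arrays (0.19 ± 0.14). Its other kept probe sets gave -0.24, -0.02 and 0.18. Hnrnpa1, the classic antagonist of SR proteins, had 529, 566, 520 and 459 on hyperthyroid arrays and 644, 382, 352 and 316 on control arrays. Control replicate 7 was therefore the highest of all 8 arrays, and without it the log2 fold change was 0.56 instead of 0.34 ± 0.21 (limma adjusted p = 0.584 with all arrays). The other kept probe sets of Hnrnpa1 gave 0.12 and 0.0067. Hnrnpc, which binds uridine tracts and keeps cryptic exons out, had 875, 821, 966 and 741 against 1064, 842, 1028 and 1211 (-0.28 ± 0.15, limma adjusted p = 0.538). Its direction was opposite to that of most Hnrnp genes, and the groups overlapped.

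Hnrnpu, a scaffold of nuclear RNA and chromatin, had 1497 to 2104 on hyperthyroid and 1722 to 1883 on control arrays (-0.06 ± 0.13). Its other kept probe sets gave 0.23 and -0.15. Hnrnpl, which binds CA repeats, had means of 500 ± 72.7 and 500 ± 82.6 (SD, n = 4 each), and its log2 fold change was 0.00 ± 0.17. Hnrnpa0, a relative of the A1 protein, had 2111 to 2498 against 1966 to 2256 (0.09 ± 0.11). Hnrnph3, of the group that binds G-rich runs, had 234, 403, 314 and 369 against 624, 454, 392 and 352 on its brightest probe set, while its other kept probe set went the opposite way (-0.46 ± 0.22 and 0.31 ± 0.28). The remaining Hnrnp genes were read at 0.30 ± 0.16 (Hnrnpm), 0.29 ± 0.21 (Hnrnpr, the paralogue of Syncrip), 0.15 ± 0.19 (Hnrnpf), 0.06 ± 0.14 (Hnrnpa3), -0.05 ± 0.12 (Hnrnph1) and -0.11 ± 0.28 (Hnrnpul1), none of them called. For Hnrnpa3 that value is of the brightest of 5 kept probe sets, and 3 of the other 4 went the opposite way, at -0.26 ± 0.12, -0.39 ± 0.17 and -0.29 ± 0.19. In the first of these 3 all hyperthyroid arrays (1119 to 1249) were below all control arrays (1304 to 1565). For Hnrnpk the array has only probe sets with 2 symbols, so it was not a member.

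**Figure D2:**
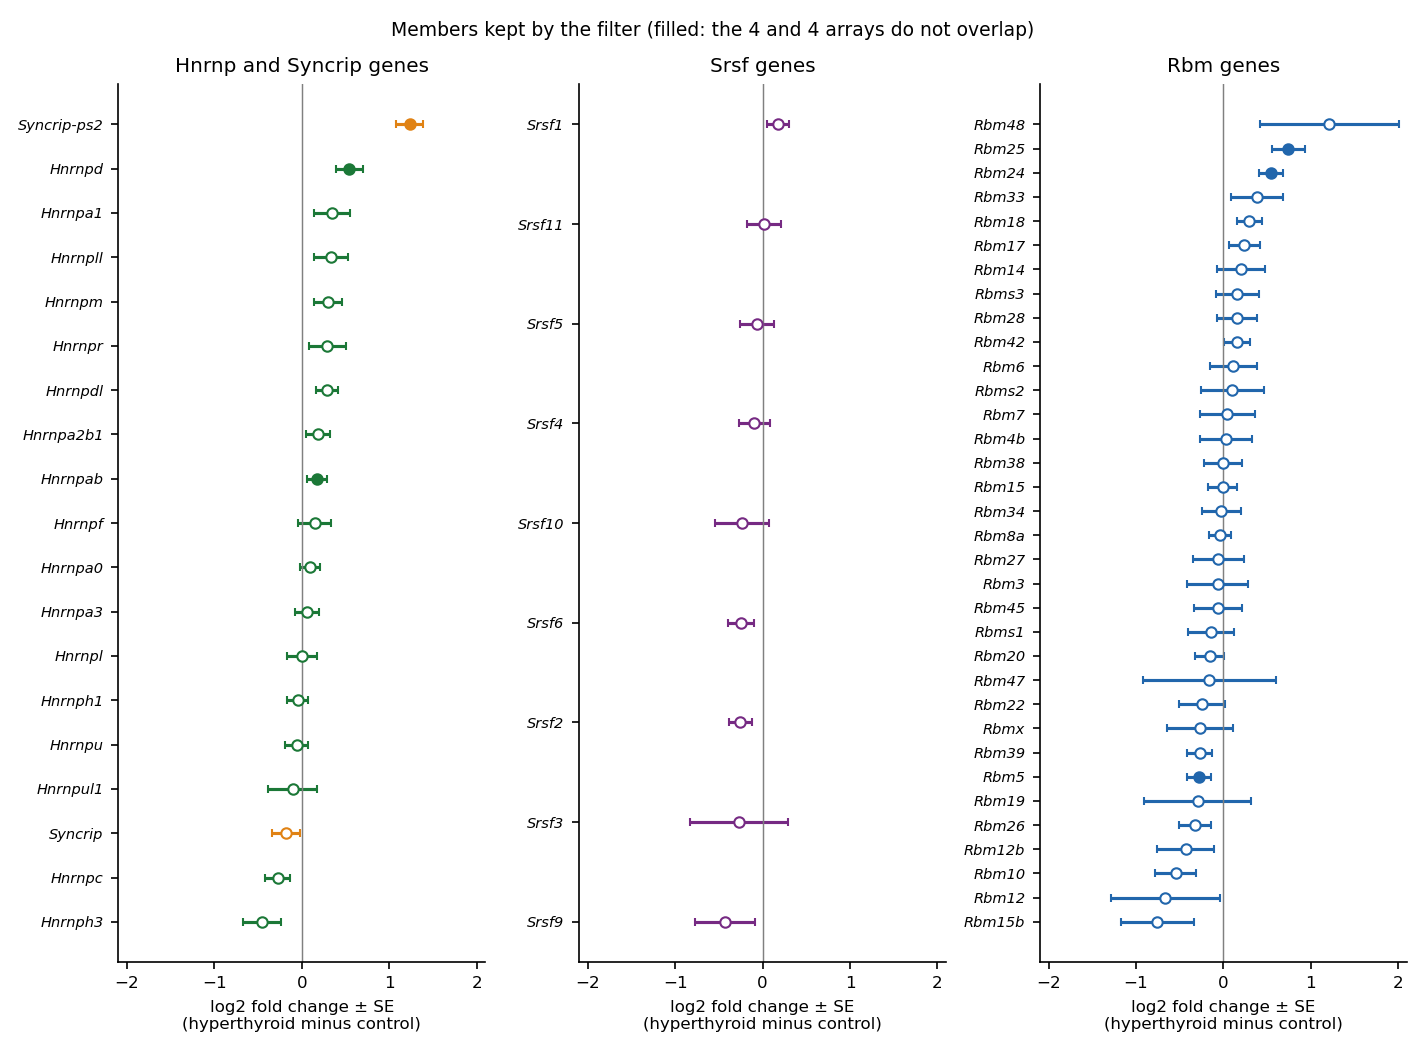
Log2 fold change ± SE (horizontal axis, hyperthyroid minus control) of the 62 members that passed the filter, ordered within families. Filled points are the 6 members whose 4 and 4 arrays do not overlap. Srsf genes lie between -0.43 and 0.18, while Rbm genes spread from -0.75 to 1.21.

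Srsf genes leaned the other way. Of the 9 tested, 7 were below 0 and 2 above (Srsf1 at 0.18 and Srsf11 at 0.02), with a median of -0.24, and none reached an unadjusted p under 0.05. Their groups overlapped in all 9 cases. The median rested on single arrays: it was -0.0037 without control replicate 11 and -0.084 without hyperthyroid replicate 1. Without both control replicates 7 and 11, the arrays with the high Schwann cell and slow-fibre sums given above, it was -0.00025. The part of those cell types in the Srsf values was not tested.

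Srsf2, a nuclear speckle protein, had 1093, 972, 1079 and 965 on hyperthyroid replicates 1, 2, 3 and 5. On control replicates 7, 8, 9 and 11 it had 1345, 1177, 1059 and 1341 (-0.25 ± 0.13, limma adjusted p = 0.519). Control replicate 9 alone lay within the hyperthyroid range. The second kept probe set of Srsf2 gave -0.03 ± 0.20. Srsf6 gave -0.25 ± 0.15 in its brightest probe set (585, 491, 557 and 483 against 730, 567, 569 and 656), whereas its other kept probe sets gave 0.02 and 0.48. Srsf1, the founding SR protein, had 794, 718, 818 and 804 against 763, 671, 616 and 725 (0.18 ± 0.13, limma adjusted p = 0.663), and its second probe set gave 0.13. Srsf5, the SR protein also called SRp40, ran from 832 to 1268 on hyperthyroid and from 800 to 1431 on control arrays (-0.07 ± 0.19). Srsf11, an SR-like nuclear protein, ran from 374 to 574 and from 331 to 559.

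Srsf3, the smallest SR protein, was measured only faintly here by the probe set that carries its symbol alone, with means of 27.6 ± 9.0 and 35.9 ± 18.6 (SD, n = 4 each). The 2 probe sets it shares with another locus were not members. Srsf7 and the pseudogene Srsf7-ps4 lay under the filter, with 17.5 to 54.6 and 0.913 to 31.3 on hyperthyroid arrays and 2.22 to 51.5 and 2.32 to 43.5 on control arrays.

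**Figure D3:**
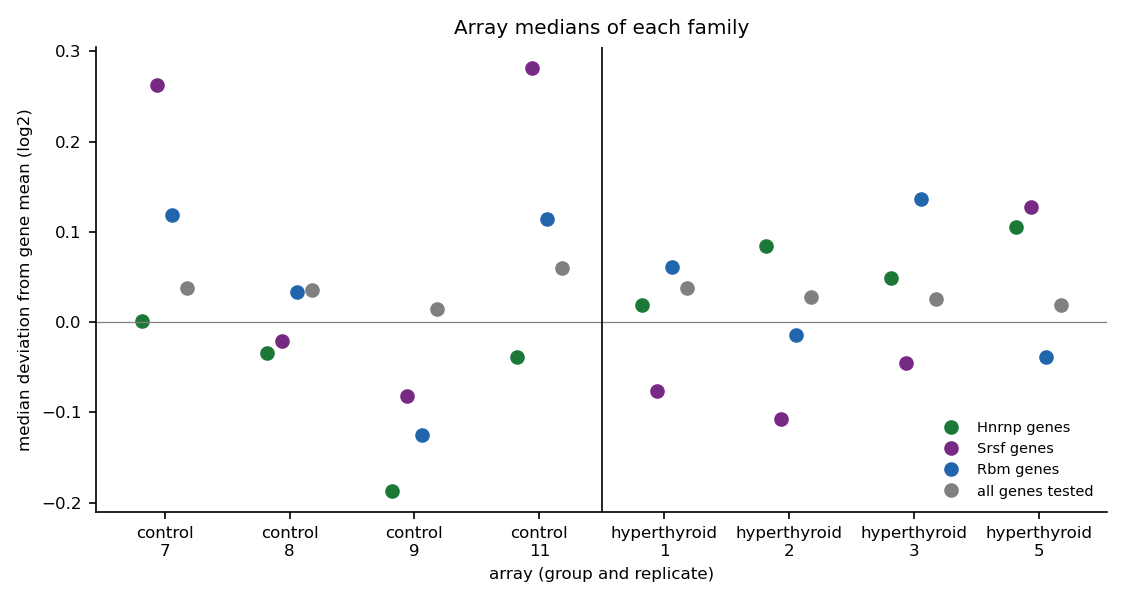
Median deviation (log2, vertical axis) of each family from its genes' means on each of the 8 arrays, beside all genes tested in grey. Srsf genes are highest on control replicates 7 and 11, at 0.26 and 0.28, and Hnrnp genes are lowest on control replicate 9, at -0.19.

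Array by array, the families did not follow each other. The median deviation of the Srsf genes from their own means was 0.26 and 0.28 on control replicates 7 and 11, but -0.021 and -0.082 on control replicates 8 and 9. It was -0.076, -0.11, -0.045 and 0.13 on hyperthyroid replicates 1, 2, 3 and 5. The Hnrnp genes stood at 0.0010, -0.034, -0.19 and -0.039 on control replicates 7, 8, 9 and 11, and at 0.019, 0.085, 0.049 and 0.11 on hyperthyroid replicates 1, 2, 3 and 5. All 4 hyperthyroid arrays were thus above all control arrays in the Hnrnp median, with control replicate 9 the lowest. For all genes tested these medians lay between 0.015 and 0.060.

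The Rbm genes had no common direction. Of 34 tested, 14 were above 0 and 20 below, with a median of -0.028. An unadjusted p under 0.05 was reached by 3 (2 higher and 1 lower), a share of 8.82% against 10.6% of all genes. Without both control replicates 7 and 11 the median was 0.14.

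Rbm24 is a splicing regulator enriched in striated muscle, needed for sarcomere assembly in the heart. It had 4655, 6113, 6006 and 4644 on hyperthyroid replicates 1, 2, 3 and 5, whereas control replicates 7, 8, 9 and 11 had 3875, 4112, 3214 and 3454. No control array reached the lowest hyperthyroid one. The mean was 5355 ± 815 against 3664 ± 405 (SD, n = 4 each), a 1.45-fold difference that was not called (0.54 ± 0.14, limma adjusted p = 0.222). A second, faint probe set also had all hyperthyroid arrays (46.8 to 81.7) above all control arrays (9.86 to 42.0), with a log2 fold change of 1.03 ± 0.48. Another faint one overlapped and gave -0.54 ± 0.62, and the last lay under the filter.

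The other muscle splicing regulators of this kind showed no such separation. Rbm20, which controls titin splicing and is mutated in a human dilated cardiomyopathy, had 319, 448, 473 and 334 against 399, 471, 433 and 432. The hyperthyroid range enclosed all 4 control values, and the log2 fold change was -0.16 ± 0.17 (limma adjusted p = 0.782). Its second probe set gave -0.54 ± 0.29. Rbm38, which stabilises transcripts during myogenic differentiation in mouse cells, had 740, 550, 405 and 407 against 557, 605, 537 and 375, with no difference in the mean (525 ± 159 and 518 ± 99.9, SD, n = 4 each).

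Rbm25, a splicing factor that associates with the spliceosome, had 395, 379, 408 and 265 on hyperthyroid replicates 1, 2, 3 and 5. Control replicates 7, 8, 9 and 11 had 206, 246, 217 and 184. The groups did not overlap, although hyperthyroid replicate 5 lay far below the other 3 and only a little above the highest control. The mean was 362 ± 65.9 against 213 ± 25.7 (SD, n = 4 each), a 1.67-fold difference that was not called (0.74 ± 0.19, limma adjusted p = 0.222). A probe set that names both Rbm25 and Rbm25l1 was not used, and whether the probe set used here also detects Rbm25l1 was not tested.

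Rbm5, Rbm6 and Rbm10 are related regulators of alternative splicing, and Rbm5 and Rbm6 lie side by side in the annotation. Rbm5 had 686, 653, 679 and 689 on hyperthyroid arrays, a narrow range below all control arrays (842, 803, 701 and 980). It was the only member whose groups did not overlap in the downward direction (-0.28 ± 0.14, limma adjusted p = 0.488). Its other 2 kept probe sets gave -0.14 ± 0.21 and -0.29 ± 0.26. Rbm10 had 96.2, 154, 94.4 and 122 against 167, 221, 142 and 154, so that hyperthyroid replicate 2 reached into the control range (-0.55 ± 0.24, limma adjusted p = 0.441). Rbm6 went the other way, with 105 to 146 against 79.6 to 156 (0.11 ± 0.27).

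Among parts of the splicing machinery, Rbm39, a partner of U2AF, had 1079, 1361, 1240 and 1057 against 1778, 1346, 1215 and 1413 on its brightest probe set (-0.27 ± 0.15, limma adjusted p = 0.546). Of its 5 kept probe sets 4 were below 0 and 1 was at 0.12. Rbm8a, the Y14 core of the exon junction complex, had 1269 to 1451 against 1194 to 1545 (-0.03 ± 0.13). Its second, fainter kept probe set gave -0.49 ± 0.27. Rbmx, the X-linked hnRNP G, had 54.9 to 114 against 46.0 to 145 (-0.27 ± 0.38). Rbm4 was near the floor of the arrays, at 1.51 to 23.7 and 5.56 to 51.1, and was not tested.

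Rbm3, a cold-inducible protein that promotes translation, varied more between rats of 1 group than between groups. It had 405, 656, 985 and 1740 on hyperthyroid replicates 1, 2, 3 and 5, while control replicates 7, 8, 9 and 11 had 1148, 643, 767 and 972 (-0.07 ± 0.35). Hyperthyroid replicate 5 was the highest array and hyperthyroid replicate 1 the lowest. Its within-group SD was 0.68 on the log2 scale, against a median of 0.28 over the members and of 0.38 over all genes. Only Rbm48, Rbm47, Rbm19 and Rbm12, all faint (array means from 29.3 to 60.5 in either group), were more variable. For every Rbm gene not described here, hyperthyroid and control arrays overlapped and the unadjusted p was above 0.05. Rbm15b, an adaptor of the RNA methylation complex, had the lowest log2 fold change, -0.75 ± 0.42 (limma adjusted p = 0.561). It had 17.4 on hyperthyroid replicate 2, under the filter intensity, against 47.8 to 78.4 on the other hyperthyroid arrays. Its control arrays had 63.2 to 87.2. Rbm48 had the largest fold change of the Rbm genes, 1.21 ± 0.80, but its control arrays alone ran from 2.68 to 72.2.

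**Figure D4:**
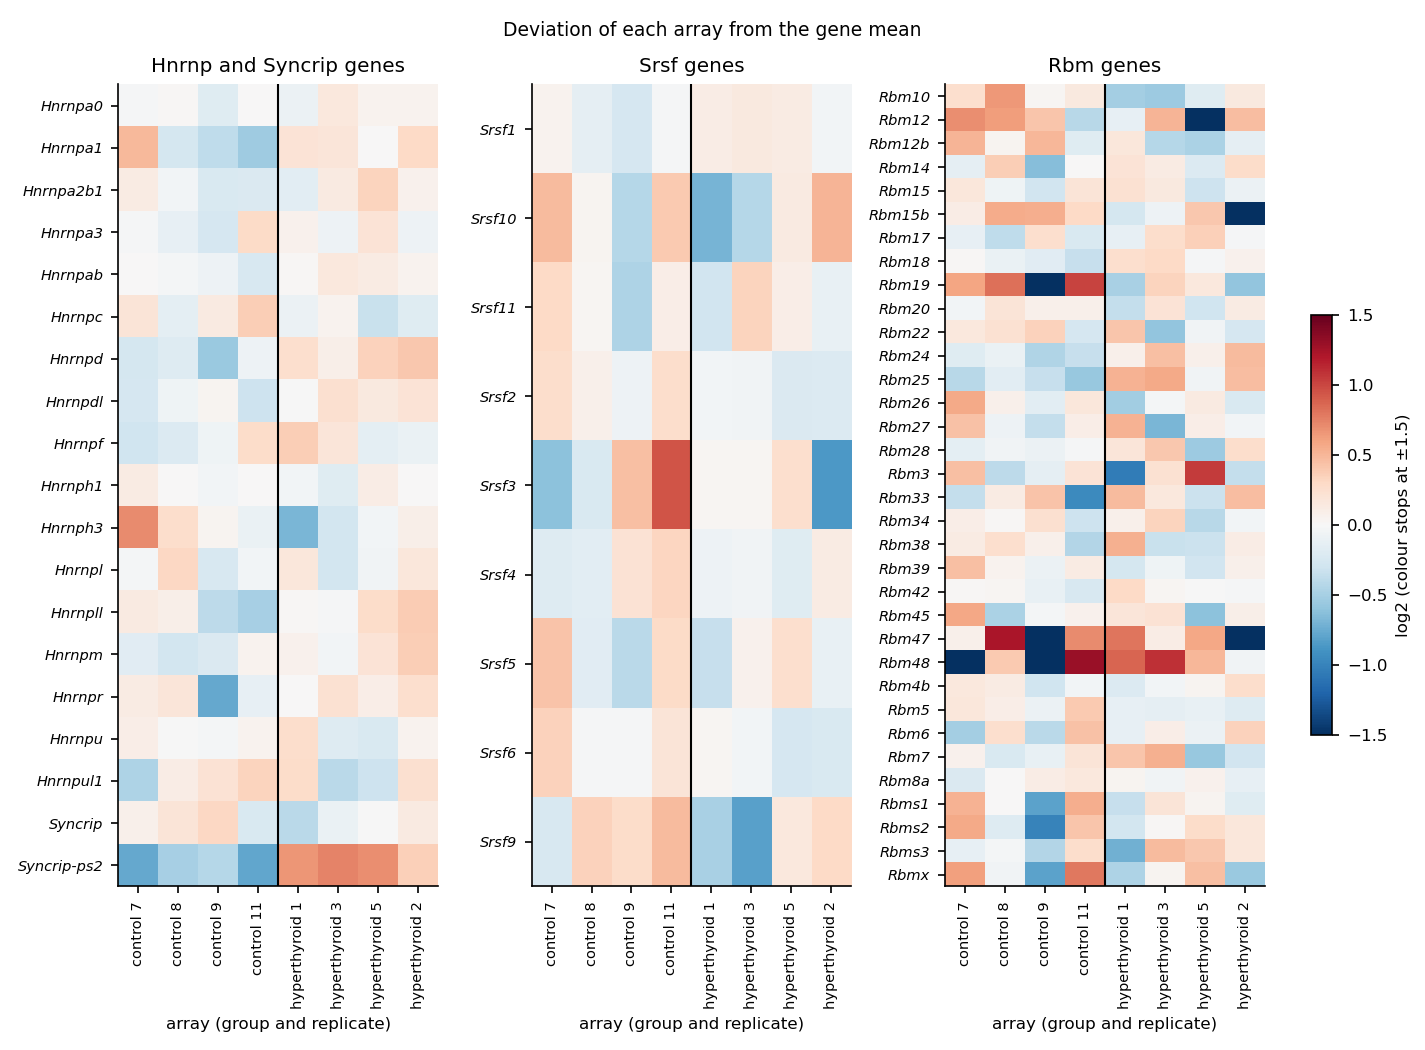
Deviation of each array (columns, 4 control then 4 hyperthyroid) from the mean of each member (rows) on the log2 scale, red above and blue below. Syncrip-ps2 is blue on all control and red on all hyperthyroid arrays. Rbm3 ranges within the hyperthyroid group from 405 on replicate 1 to 1740 on replicate 5.

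Probe sets of the same gene often disagreed. Of the 26 members with at least 2 kept probe sets, 11 had log2 fold changes of a single sign and 15 of both signs, and the median distance between the highest and the lowest was 0.44. That distance was 1.56 for Rbm24, 1.41 for Srsf10 and 1.18 for Rbm7, each of which had faint probe sets, and 0.046 for Srsf1. Over the 111 kept member probe sets, 8 reached an unadjusted p under 0.05 (7.21%, against 9.68% of all 18608 probe sets). Groups did not overlap for 8 of the 111, against 6.15% of all probe sets. At this level too, 1 member probe set was called, that of Syncrip-ps2 (0.0322% of all probe sets were called).

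**Figure D5:**
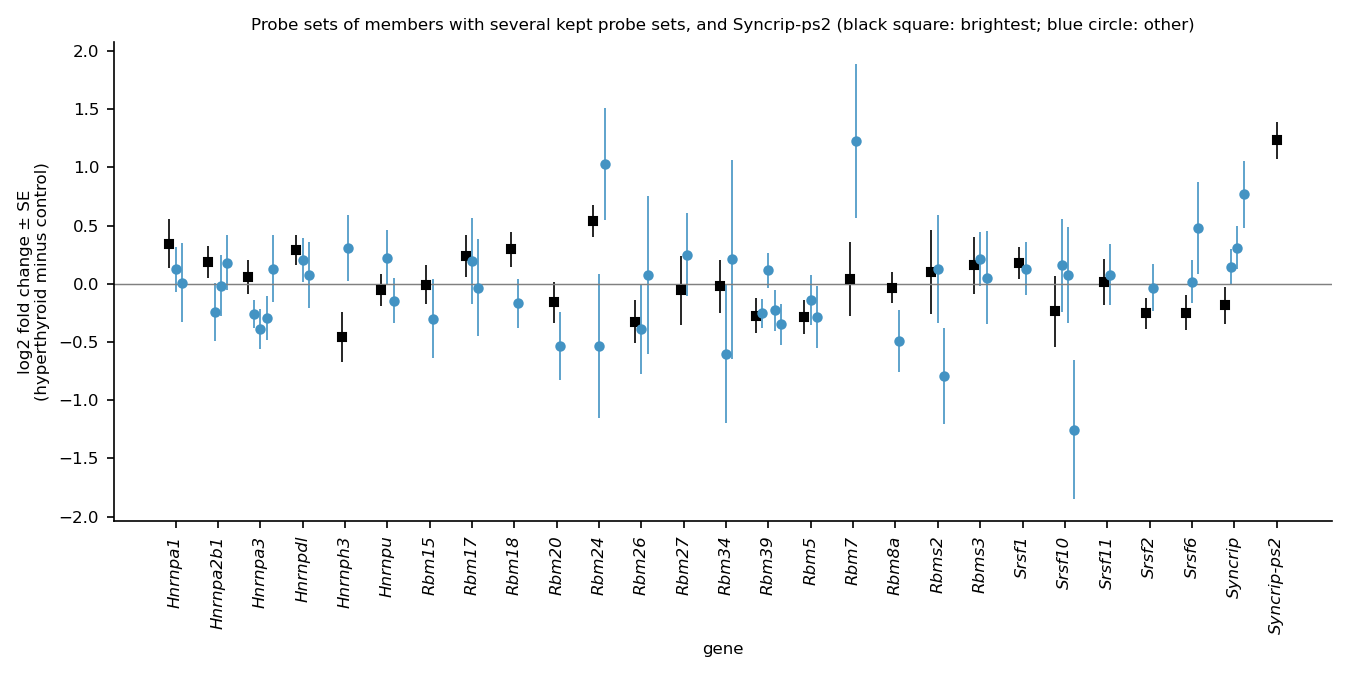
Log2 fold change ± SE (vertical axis) of each kept probe set, for the 26 members with several and for Syncrip-ps2. Black squares are the brightest probe set of a gene and blue circles the others. The 4 probe sets of Syncrip run from -0.18 to 0.77, below the 1.23 of Syncrip-ps2.

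Other genes of RNA processing were read as lists for comparison. Of 16 SR-related proteins and SR kinases, 8 were above 0 (median 0.015), and 1 reached an unadjusted p under 0.05 (6.25%, against 10.6% of all genes). That was Srrm2, a scaffold of nuclear speckles, with 470 to 540 against 327 to 463 (0.37 ± 0.17, limma adjusted p = 0.456). Of 43 core spliceosome genes, 22 were above 0 (median 0.021). An unadjusted p under 0.05 was reached by 2 upwards and 3 downwards (11.6%, against 10.6% of all genes). Sf3b4, a subunit that helps to recognise the branch point, had the smallest p among them, with 86.4 to 117 against 151 to 244 (-0.92 ± 0.22, limma adjusted p = 0.198). Of 13 genes of nonsense-mediated decay and the exon junction complex, 10 were above 0 (median 0.12) and none reached an unadjusted p under 0.05. No gene of these lists was called.

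Splicing regulators outside the 4 name families had a median of -0.14 over 22 genes, with 9 above 0. An unadjusted p under 0.05 was reached by 4 of the 22, 1 upwards (Nono) and 3 downwards, against 10.6% of all genes. The groups did not overlap for 4 of the 22, against 6.55% of all genes, namely for those 3 downwards and for Tial1 upwards (394 to 471 against 337 to 358). Tardbp, which encodes TDP-43, a repressor of cryptic exons, had 857, 902, 901 and 779 on hyperthyroid replicates 1, 2, 3 and 5. On control replicates 7, 8, 9 and 11 it had 1224, 1378, 1473 and 1188 (-0.61 ± 0.13, limma adjusted p = 0.135). Mbnl2, a developmental splicing regulator of the family sequestered in myotonic dystrophy, had 3512 to 4874 against 5597 to 6396 (-0.40 ± 0.13, limma adjusted p = 0.306). Khdrbs1, the RNA-binding adaptor Sam68, had 584 to 721 against 761 to 1101 (-0.42 ± 0.15, limma adjusted p = 0.347). None of them was called, and none is a member.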

How the data were processed

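The authors deposited 1 linear intensity per probe set and array, made with GCOS, the Affymetrix software, per the submitters' processing notes. Which version and settings they used is not given in the sources used here. Per the labels' protocols, complementary DNA was primed with oligo(dT), which favours the 3′ ends of transcripts. Each array has a mean of 150 after 2% of values are left out at each end. Such scaling hides differences in total RNA. Array medians ran from 38.8 to 42.0 on hyperthyroid and from 43.5 to 54.9 on control arrays, so they separated the groups. The zero point of every log2 fold change therefore depends on the submitters' scaling. After centring on array medians the median log2 fold change of all genes was 0.22. With 4 arrays per group their number limits the precision.

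Of 31099 probe sets, 57 controls were left out. Symbols came from the platform annotation, and all 68 members matched RefSeq (GRCr8) with the same symbol. Intensities were transformed to log2(intensity + 3.41), where 3.41 is their 10th percentile, and fold changes on that scale understate those of low transcripts. Probe sets with a mean log2 value above the 40th percentile, 4.69 (an intensity of about 22.5), were kept, in all 18608, and each of 10194 genes was given its brightest one. Genes were tested with limma 3.58.1 in R 4.3.3 (lmFit, eBayes with a trend, two-sided, Benjamini-Hochberg at 0.05), after a check on simulated data. Ratios were tested with exact permutations in scipy 1.17.1 over the 70 assignments of arrays.

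Members are described by counts and medians beside those of all genes, with no test of a list. Members, lists and alternatives were chosen with earlier results of these data known. Named members were those called, those with an unadjusted p under 0.05 or with groups that do not overlap, the 3 brightest of each family, and a fixed set of well-known genes. Other members were named after their values were seen. Alternatives were other scalings, pseudocounts, filters and variance models, averaging a gene's kept probe sets, and arrays left out. Replicates are separate rats.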

Additional observations from a re-analysis of the deposited data

Results flagged for a closer look

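Among 52 groups of 4 arrays (26 named members in 2 groups), 2 held an array whose gap to its nearest neighbour exceeded Dixon's 95% critical value for 4 samples, as a share of the group's range on the log2 scale. About 5% of groups would do so by chance. Rbm25 had 265 on hyperthyroid replicate 5, against 379 to 408 on the other 3 hyperthyroid arrays (ratio 0.830). Without that array its log2 fold change was 0.88 (limma adjusted p = 0.139). Hnrnpa0 had 1966 on control replicate 9, against 2218 to 2256 on the other 3 control arrays (ratio 0.874).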

How the results depend on the processing

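The 21 alternatives were chosen with earlier results of these data known. Over them, 501 of 545 values of the 26 named members kept their direction and their side of the threshold. Of the 26 members, 16 never changed sign. Values scaled to 18 hybridization controls or centred on array medians are given relative to the median of all genes, which those steps moved by 0.32 and 0.22; their tests are of the values with that shift included. No paired analysis was possible because the groups share no replicate number.

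Genes called numbered 7 in the main setting, and 12 after centring on array medians, 113 after scaling to hybridization controls, 11 with no filter, 0 without a variance trend (1080 with an unadjusted p under 0.05 in the main setting), 14 with a robust variance and 1 with the mean of all kept probe sets. They were 0 to 7 with 1 array left out (limma; 0 without hyperthyroid replicate 3, 1 without control replicate 7, 3 without control replicate 9, 4 without hyperthyroid replicate 2), 0 without both control replicates 9 and 11, and 3 without both control replicates 7 and 11. Members called were 4 after scaling to hybridization controls, when Rbm25, Rbm24 and Hnrnpd were called too (limma adjusted p = 0.0366, 0.0232 and 0.0465). They were 0 without a variance trend and without either pair of control arrays, and 0 to 1 with 1 array left out. Syncrip-ps2 kept a log2 fold change of 1.07 to 1.32 throughout, with a limma adjusted p from 0.00414 to 0.303 (0.106 and 0.0867 without those pairs).

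Members with an unadjusted p under 0.05 numbered 14 after centring, 17 after scaling to hybridization controls, and 4 to 12 with 1 array left out (12 without control replicate 9). Members whose groups do not overlap numbered 12 after either of those scalings, 7 to 11 with 1 array left out, 15 without both control replicates 9 and 11 and 14 without both control replicates 7 and 11. Fewer arrays make overlap rarer by construction.

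The Hnrnp median was 0.086 to 0.18 with 1 array left out and 0.056 without both control replicates 9 and 11. The Srsf median was -0.21 to -0.0037 with 1 array left out and -0.00025 without both control replicates 7 and 11. The Rbm median was -0.096 to 0.043 and 0.14 in the same settings.

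Sign changes occurred in 10 of the 26 named members. With 1 array left out the ranges were -0.21 to 0.065 for Srsf5, -0.11 to 0.012 for Rbm8a, -0.13 to 0.12 for Srsf11, -0.15 to 0.0099 for Hnrnpu, -0.079 to 0.11 for Hnrnpl, -0.18 to 0.11 for Rbm38 and -0.43 to 0.27 for Rbm3. Without both control replicates 7 and 11, Srsf5, Hnrnpl, Rbm3 and Rbmx were at 0.26, -0.031, 0.23 and 0.29, and without both control replicates 9 and 11, Rbm8a, Srsf3, Srsf11 and Hnrnpl at 0.085, 0.29, -0.15 and -0.14. With the mean of all kept probe sets Syncrip was at 0.26 and Hnrnpu at 0.0071, after quantile normalization Srsf11 and Hnrnpl at -0.036 and -0.035, and with array weights Hnrnpl and Rbm3 at -0.093 and 0.029. The cause was not tested. Srsf3 gave no value with the filter at the 60th percentile.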
